A study of Mus musculus with 192 samples.

Results

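The windows described here are transcription start-site windows that lie inside introns. They were taken from a deposited table of 553094 windows of 150 bp on mouse genome build mm9, by the rule that the GENCODE annotation of the window begins with "intron". This gave 134338 windows, 24.3% of the table, and 133027 of them were listed in at least 1 of the cells kept below. A peak of a cell was given to a window when it started within 2 bp of the window's start.

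The cells were single mouse embryonic fibroblasts (connective-tissue cells grown from embryos) of strain C57BL/6, with no genetic change named in the labels. Every cell had received interferon-beta, a secreted antiviral protein, at 100 U/ml for 1 h, so no unstimulated cell is among them. The labels put 96 cells in a group titled Naïve-1h, with no earlier treatment, and 96 in a group titled Preteated-1h (so spelled), whose pretreatment is not specified; they are called naïve and pretreated below. The series was made to map alternative start sites under interferon, by sequencing RNA 5′ ends in one cell at a time. No animal, culture or plate is named, so each group counts as 1 sample of many cells. No difference between the groups was tested, intervals cover counting error alone, and the pretreatment cannot be told apart from anything else that differed between the 2 sets of libraries.

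A promoter is the stretch of DNA around a transcription start, and many genes use more than 1. A start inside an intron can be an alternative promoter that shortens the 5′ part of an mRNA, the start of a separate RNA, or the start of an antisense RNA made from the opposite strand. A 5′ end read from RNA can also come from a processed, broken or internally copied molecule, and a 5′ end alone does not tell these apart. Repeats such as the SINE families B1 and B2 and the LINE family L1 fill much of mouse intron sequence, and some carry promoters of their own.

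Of the windows listed in 10 or more cells, called recurrent below, 32 were an intron in the GENCODE table and a promoter in the RefSeq table. These 32 belonged to 15 genes by RefSeq's naming. The RefSeq promoter sequence could be tied to the window for Trim30a, Ube2d3 and Yjefn3 and for 7 other genes. The sequences of those 7 are given. The ties rest on the spacing between the starts of a gene, which is the same on mm9 and on GRCm38.p6, or on the gene having a single start. The sequences show where the deposited start positions lie against an annotated promoter that the GENCODE table does not hold. Each is from RefSeq on GRCm38.p6 and runs 5′ to 3′ on the gene's strand, from 100 bases before the RefSeq start to the 50th base from it. Capitals mark the bases at the positions of the recurrent windows.

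Tnrc6b, chr15:80798510-80798659, + strand: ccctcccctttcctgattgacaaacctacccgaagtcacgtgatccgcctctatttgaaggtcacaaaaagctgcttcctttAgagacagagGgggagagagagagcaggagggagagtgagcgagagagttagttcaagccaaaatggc
Myl6, chr10:128492960-128493109, - strand: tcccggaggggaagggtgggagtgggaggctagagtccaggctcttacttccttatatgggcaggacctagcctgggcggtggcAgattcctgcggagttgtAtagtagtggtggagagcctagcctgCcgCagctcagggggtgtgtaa
Adk, chr14:21076052-21076201, + strand: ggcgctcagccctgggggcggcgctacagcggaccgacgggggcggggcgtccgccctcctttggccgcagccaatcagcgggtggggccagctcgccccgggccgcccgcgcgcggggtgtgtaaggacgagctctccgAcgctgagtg
Cct2, chr10:117063326-117063475, - strand: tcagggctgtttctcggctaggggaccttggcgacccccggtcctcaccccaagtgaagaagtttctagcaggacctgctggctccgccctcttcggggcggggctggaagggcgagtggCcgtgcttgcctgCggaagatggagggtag
Hgf, chr5:16553801-16553950, + strand: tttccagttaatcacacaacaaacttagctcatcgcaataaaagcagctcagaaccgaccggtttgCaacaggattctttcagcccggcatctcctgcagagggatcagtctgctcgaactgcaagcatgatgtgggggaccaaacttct
Tnc, chr4:64046887-64047036, - strand: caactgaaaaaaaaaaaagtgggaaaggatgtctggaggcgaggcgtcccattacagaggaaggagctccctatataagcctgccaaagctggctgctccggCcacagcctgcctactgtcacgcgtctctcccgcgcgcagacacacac
Rpl32l, chr10:20208339-20208488, + strand: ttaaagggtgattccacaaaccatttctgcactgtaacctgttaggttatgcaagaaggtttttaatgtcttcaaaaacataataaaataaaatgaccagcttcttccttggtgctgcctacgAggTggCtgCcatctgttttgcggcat

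In the Tnrc6b promoter (Tnrc6b acts with Argonaute in microRNA silencing), the window 18 bases before the RefSeq start was listed in 60 naïve and 18 pretreated cells. The window 8 bases before it was listed in 9 and 10 cells. Both windows lay in intron 2 of 22 of the GENCODE transcript, 39006 and 39016 bp downstream of the nearest GENCODE start. With every same-strand window within 50 bp counted, the site was listed in 82 naïve and 42 pretreated cells.

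Myl6, a light chain of non-muscle and smooth-muscle myosin, had 4 such windows in intron 2 of 5, and the groups listed different ones. The window at 16 bases before the RefSeq start was listed in 13 naïve cells and 0 pretreated cells, and the window at 2 bases after it in 24 and 6. The windows 28 and 31 bases after the start were listed in 1 and 2 naïve cells and in 9 and 18 pretreated cells. Within 50 bp the site was listed in 59 naïve and 43 pretreated cells, so the difference lay in the position more than in whether the site was listed.

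Rpl32l, a gene named after ribosomal protein L32, lies in intron 1 of 17 of Map7, which encodes a microtubule-associated protein. Its 4 windows, 23 to 32 bases after the RefSeq start and 3 bases apart, were listed in 34, 22, 20 and 16 naïve cells and in 2, 0, 0 and 0 pretreated cells. Within 50 bp it was listed in 92 of 92 naïve cells and 2 of 85 pretreated cells. Whether its reads belong to another gene of similar sequence, such as that of ribosomal protein L32 itself, was not tested. In its sequence each capital follows a g.

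Adk encodes adenosine kinase, and its 2 windows lay in intron 1 of 10. The one marked was listed in 7 naïve and 5 pretreated cells, another just past the stretch shown in 16 and 22, and within 50 bp of the latter the site was listed in 36 and 43 cells. The Cct2 site (Cct2 is a subunit of the cytosolic chaperonin) was listed in 23 and 37 cells within 50 bp, and that of Hgf, hepatocyte growth factor, in 19 and 12. The Tnc promoter (Tnc encodes the matrix protein tenascin C) lay antisense to its host transcript 8030451A03Rik and was listed in 10 and 26 cells within 50 bp.

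The base at the deposited position was checked on windows of any class listed in 20 or more cells whose gene has 1 RefSeq promoter row that holds the position. Over 1352 such windows the base just before the position was G in 64.7%, and the base at it was C in 42.7%, A in 39.4% and G in 6.88%. The deposited position was thus most often the base after a G. The letters TATAAA, on either strand, stood in 13.6% of all 32851 RefSeq promoter rows of 300 bases and in 1 of 1 row of Rpl32l and 2 of 2 rows of Tnc. The stretches of Rpl32l and Tnc shown above do not hold these letters on either strand, so the matches lie in parts of the rows not shown. No row of Tnrc6b, Myl6, Adk, Cct2 or Hgf held them.

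Trim30a, an interferon-inducible tripartite-motif gene, had a recurrent window 72 bases after a RefSeq start, past the end of the promoter row. It was listed in 5 naïve and 8 pretreated cells. The row is shown in part because it holds the letters GAAA, any 2 bases and GAAA again (searched on both strands), which resemble the interferon-stimulated response element and stood in 3.44% of all promoter rows. Both rows of Trim30a and both rows of Mndal, another interferon-inducible gene with a recurrent intron window, held them. Capitals mark the match, from 2 to 11 bases after the RefSeq start.

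Trim30a, chr7:104446076-104446153, - strand: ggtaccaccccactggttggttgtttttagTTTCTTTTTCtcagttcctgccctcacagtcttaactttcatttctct

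The depth filter left out 4 naïve and 11 pretreated cells and kept 92 and 85. The kept cells had between 305066 and 3857034 total tags (aligned reads) in the naïve group and between 502374 and 13174313 in the pretreated group. Peaks on the mitochondrial chromosome held 0.759% of the naïve tags, in 92 of 92 cells, and the pretreated cells listed 0. Of 10 fibroblast markers, 4 were found in more than 50% of naïve and of pretreated cells, and 1 was at 0 in both groups. Of 18 markers of other cell types, 0 were found that often and 9 were at 0 in both groups, and their summed level was 16.3 and 21.2 tags per 1000000 total tags against 2567 and 3240 for the fibroblast markers.

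Intron windows held a larger share of the naïve than of the pretreated libraries. The share of the tags in peaks was 8.68% (95% Clopper-Pearson interval 8.68 to 8.69%) in the naïve group and 4.74% (4.74 to 4.75%) in the pretreated group. By cell, the naïve values ran from 3.78% to 53.5% with a median of 8.78%, and the pretreated values from 1.64% to 36.2% with a median of 4.47%. In 90 of 92 naïve cells the share was above the pretreated median, and in 83 of 85 pretreated cells it was below the naïve median.

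The share of listed peaks differed in the same direction, at 17.7% (17.6 to 17.8%) of 477390 naïve peaks and 12.8% (12.7 to 12.9%) of 562568 pretreated peaks. A cell listed a median of 898.5 intron peaks in the naïve group (353 to 2922) and 789 in the pretreated group (94 to 4402). Promoter windows held 67% of the naïve and 74.6% of the pretreated tags. Intergenic windows held 4.29% and 2.60%, exon windows 13.9% and 12.6%, and transcript-end windows 6.10% and 5.40%. A lower pretreated share of tags was thus not particular to introns. By share of peaks, intergenic windows went from 5.05% to 3.24%, exon windows from 24.2% to 25.2% and transcript-end windows from 10.0% to 10.8%.

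A naïve cell (number 31, the shallowest kept one, with 305066 tags) and a pretreated cell (number 93, with 2257663 tags) stood far above the rest, with 53.5% and 36.2% of their tags in intron windows. Without these 2 cells the group shares were 8.62% and 4.50%. With the cells of each group ranked by depth and cut into 4 parts, the naïve medians were 9.61%, 9.11%, 8.31% and 8.12% from the shallowest to the deepest, and the pretreated medians 4.43%, 5.19%, 4.49% and 4.17%. Each naïve value was above each pretreated one.

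**Figure D1:**
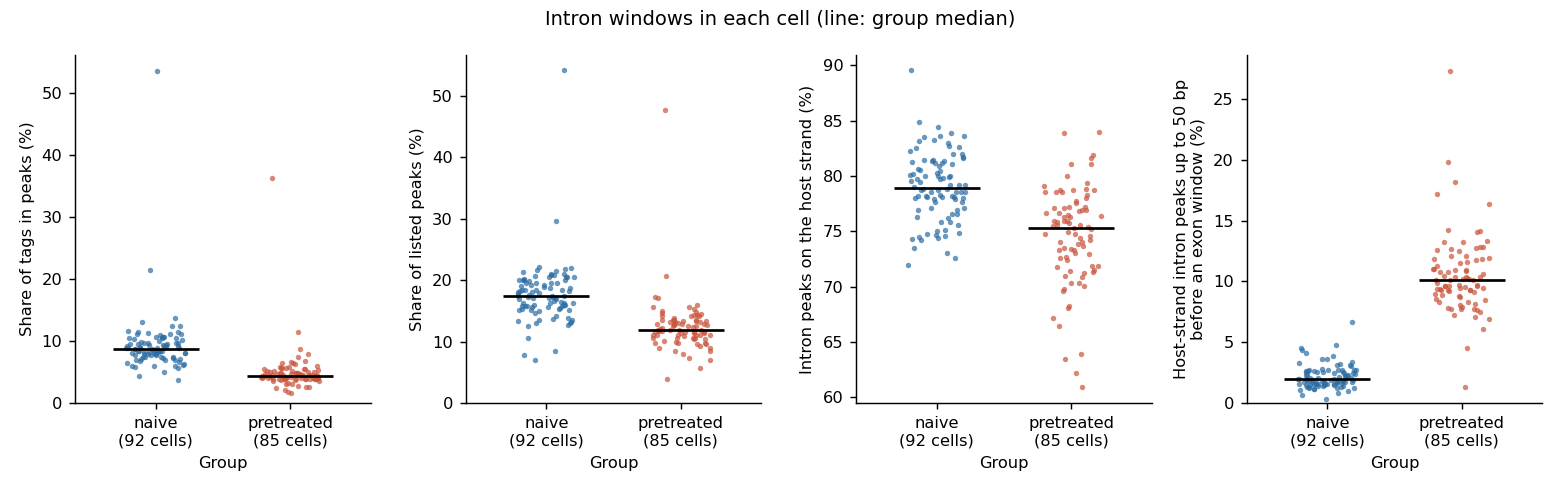
Each point is 1 cell, in 92 naïve and 85 pretreated cells, with lines at the group medians. The panels show the intron share of a cell's tags, of its listed peaks, the share of its intron peaks on the strand of the host transcript, and the share of its host-strand intron peaks that lie up to 50 bp before an exon window, all in percent. The naïve cells sit higher in the first 3 panels (medians 8.78%, 17.5% and 78.9% against 4.47%, 11.9% and 75.3%) and lower in the last (1.96% against 10.1%).

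The intron windows spread over 10187 host genes and lay in introns of every order. Intron 1 of the named transcript held 33% of the windows and the last intron 12.5%. Among peaks, intron 1 held 33.2% in the naïve and 34.9% in the pretreated group, and introns 3 and later 49.9% and 48.6%. The nearest annotated start belonged to the host transcript itself in 25.6% of windows. It belonged to the host gene in 71.7% of the 99204 windows where both symbols were known.

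The median deposited distance of a window to the nearest GENCODE start was 4223.5 bp downstream, with quartiles at -4627 and 20055 bp and extremes at -644000 and 704681 bp (negative values are upstream). Peaks of the naïve cells had a median of 4506 bp (4380 to 4623) and those of the pretreated cells 3742 bp (3627 to 3844). No intron peak lay within 1000 bp upstream of a start, because the table gives that stretch to the promoter class. Up to 1000 bp downstream there were 4.77% of the naïve and 7.63% of the pretreated intron peaks. More than 10000 bp upstream were 19.9% and 17.3%, and more than 10000 bp downstream 38% and 35%.

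**Figure D2:**
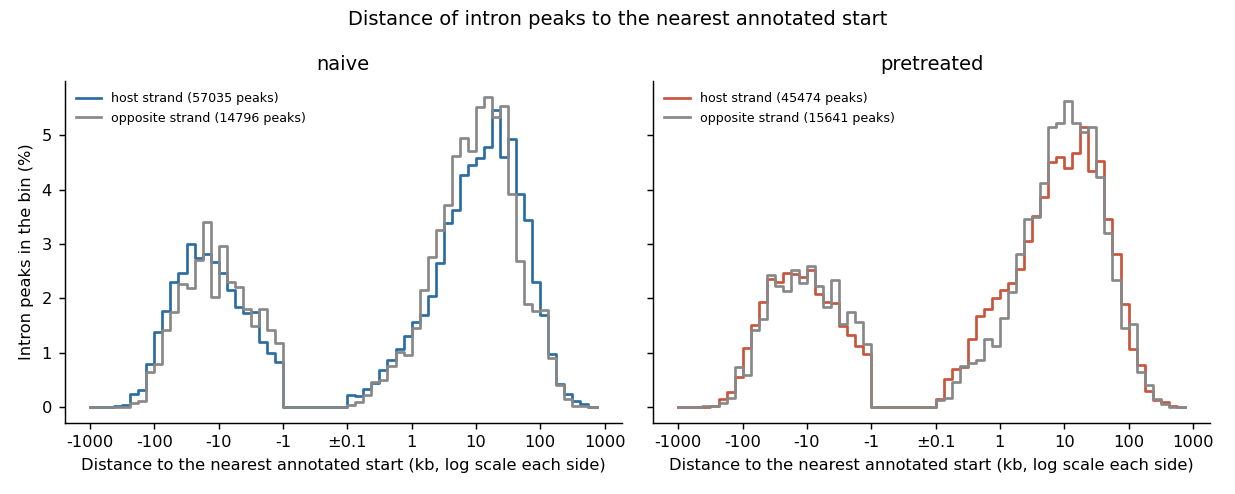
Share of intron peaks (y axis, percent of the peaks of a strand) by distance to the nearest GENCODE start (x axis, kb, logarithmic on each side, upstream on the left), for peaks on the host strand and on the opposite strand. The gap between -1 kb and 0.1 kb is the stretch that the annotation calls promoter; peaks lie on both sides and more often downstream, with medians of 4193 and 4209 bp for the host and the opposite strand in naïve cells.

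Intron peaks were small and sharp. The median intron peak held 90 tags in the naïve and 92 in the pretreated group, against 218 and 220 for promoter peaks. The focus ratio, which says how much of a peak's signal sits at its main position, had a median of 0.983 and 0.980 in intron peaks and of 0.959 and 0.902 in promoter peaks. In 92 of 92 naïve and 85 of 85 pretreated cells the median focus ratio of intron peaks was above that of promoter peaks. Exon peaks had 0.978 and 0.970 with medians of 106 and 108 tags, close to the intron values, and intergenic peaks 0.983 and 0.978 with 103 tags in both groups.

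The strand of the host transcript was known for 85.1% of the windows. Most intron tags were on that strand, 79.8% (79.8 to 79.8%) in the naïve and 76.5% (76.5 to 76.6%) in the pretreated group. As a share of peaks this was 79.4% (79.1 to 79.7%) and 74.4% (74.1 to 74.8%). Transcript-end peaks were close to these values, at 79.4% and 76.4%. Exon peaks had 95.2% and 94.3%, and intergenic peaks, which were compared with the nearest transcript, 56.7% and 56.2%. In 92 of 92 and 85 of 85 cells the intron value was below the exon value. By cell it ran from 72% to 89.5% in the naïve and from 60.9% to 84% in the pretreated group. By share of peaks, 78 of 92 naïve cells were above the pretreated median and 76 of 85 pretreated cells below the naïve median. Among windows of 2 or more cells, each without its highest cell, the tag shares were 66.8% and 68%, so the difference had the other sign there. Opposite-strand peaks resembled host-strand peaks in size (medians of 81 and 93 naïve tags, 87 and 94 pretreated tags) and in focus ratio (0.982 and 0.983, 0.980 and 0.980).

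Most intron windows were seen in a single cell. Of the 133027, 124715 (93.8%) were listed in 1 cell, 7891 in 2 to 9 cells and 421 in 10 or more. The 421 are 0.316% of the intron windows, against 2.18% of all windows, 6.81% of promoter windows and 0.720% of exon windows. At the limit, 50 intron windows were listed in exactly 10 cells and 66 in 9. The single-cell windows held 62.6% of the naïve and 70.5% of the pretreated intron tags and the recurrent ones 21.8% and 12%, while recurrent windows of all classes together held 60.8% and 60.9% of the tags.

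The more cells listed an intron window, the less often it was on the host strand. Windows of 1 cell were on that strand in 82.2% (81.9 to 82.4%), windows of 2 to 9 cells in 61.1% (59.9 to 62.3%, with windows split evenly between strands counted as host strand, or 60.5% with these counted as + strand) and windows of 10 or more cells in 51% (45.7 to 56.3%), 181 of 355. From 1 cell to 10 or more, exon windows went from 95.8% to 90.5%, transcript-end windows from 79.4% to 73.5% and promoter windows from 76.3% to 86.3%, so the span was widest for introns among these 4 classes. Counted in each group alone, the recurrent intron windows were on the host strand in 54.2% (46.6 to 61.7%, 177 windows) of the naïve and 46.7% (38 to 55.4%, 135 windows) of the pretreated group. Outside repeats the value was 54.2% (47.8 to 60.5%). Neighbouring windows are not independent, and with windows chained into sites wherever starts on a strand lay within 150 bp, the values were 80.1%, 77.8% and 63.4%, so the span was narrower by site than by window.

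The share of windows that RefSeq places in a promoter went the other way, from 0.503% (0.464 to 0.544%) in 1 cell to 2.55% in 2 to 9 cells and 7.60% (5.26 to 10.6%) in 10 or more cells. Over all 134338 windows the RefSeq table gave an intron for 96.4% and a promoter for 0.651%, and the UCSC table for 94.5% and 1.18%.

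**Figure D3:**
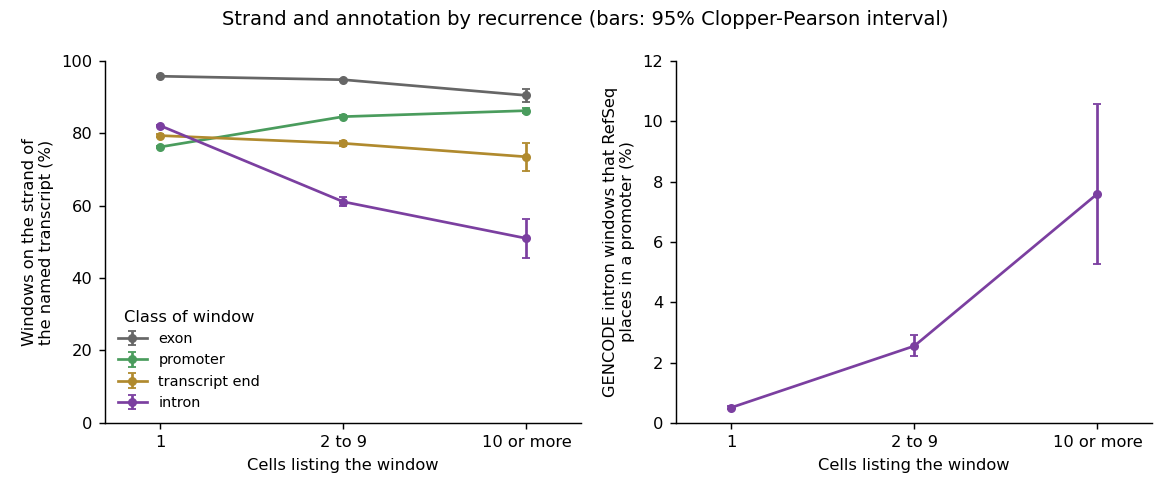
Left, share of windows on the strand of the named transcript (percent) by the number of cells listing the window, for 4 classes; right, share of GENCODE intron windows that the RefSeq table places in a promoter (percent). Bars are 95% Clopper-Pearson intervals; the intron line falls from 82.2% to 51% on the left and rises from 0.503% to 7.60% on the right.

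The 421 recurrent windows had 309 named host genes, 242 of them with 1 such window, and 12 with 4 or more, among them Glis3, Chd9, Ext1, Farp1 and M1ap. Of the 174 on the opposite strand, 71.3% were listed in both groups, against 53.6% of the 181 on the host strand. RefSeq gave another class than intron to 8.05% of the opposite-strand and 20.4% of the host-strand windows. Another window lay within 50 bp on the same strand for 288 of the 421.

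Annotated repeats differed between the groups. They held 32.6% of the naïve and 23.9% of the pretreated intron peaks, against 37.1% and 22.4% of intergenic peaks. Exon peaks had 0.558% and 0.328%. The repeat was read from a single detailed annotation of each window, so the low exon values may reflect how that annotation was given, which was not tested. SINEs were 17% and 12.6% of the intron peaks, LINEs 5.92% and 3.91%, and LTR elements 5.28% and 4.37%. With windows in repeats left out, the intron share of tags was 6.19% in the naïve and 3.67% in the pretreated group, so a difference was present outside repeats too.

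Among recurrent windows 122 of 421 (29%) lay in repeats. Those listed in naïve cells alone numbered 107, with 62 (57.9%, 48 to 67.4%) in repeats, and those listed in pretreated cells alone 48, with 8 (16.7%, 7.48 to 30.2%) in repeats. SINEs led, with 66 windows, 38 of them naïve alone and 5 pretreated alone. The B2_Mm1a family had 13 windows, 11 of them in naïve cells alone, and the 14 windows in simple repeats included 12 in naïve cells alone. The simple repeats (A)n, (C)n and (T)n had 6, 3 and 3 of these windows, each in naïve cells alone. The part of alignment of repeated sequence in these counts was not tested, since the read filters are not given in the sources used here.

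A part of the recurrent intron windows belonged to 1 group. Listed in 1 group alone were 25.4% (naïve) and 11.4% (pretreated) of them, against 7.40% and 4.38% of all recurrent windows. Intergenic windows had larger shares, 39% and 16%, and promoter windows smaller ones, 4.97% and 3.58%. With the rule of a difference of at least 20 points in the share of cells and at least 1 in the log2 ratio of tags per 1000000, 36 of the 421 (8.55%) were higher in the pretreated group, against 5.2% of all recurrent windows and 5.07% of those of the other classes. Lower in the pretreated group were 66 (15.7%), against 6.28% of all and 5.94% of those of the other classes. With cells and tags pooled within 50 bp of each window, 72 were higher and 70 lower. Neighbouring windows share pooled cells, so 1 site can be counted more than once there. Of the 107 naïve-alone windows 22, and of the 48 pretreated-alone windows 29, had a window of the other group within 50 bp. With windows in repeats left out, 31 were higher and 33 lower. Neither the pooled counts nor those outside repeats were made over all recurrent windows, so they have no background share.

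**Figure D4:**
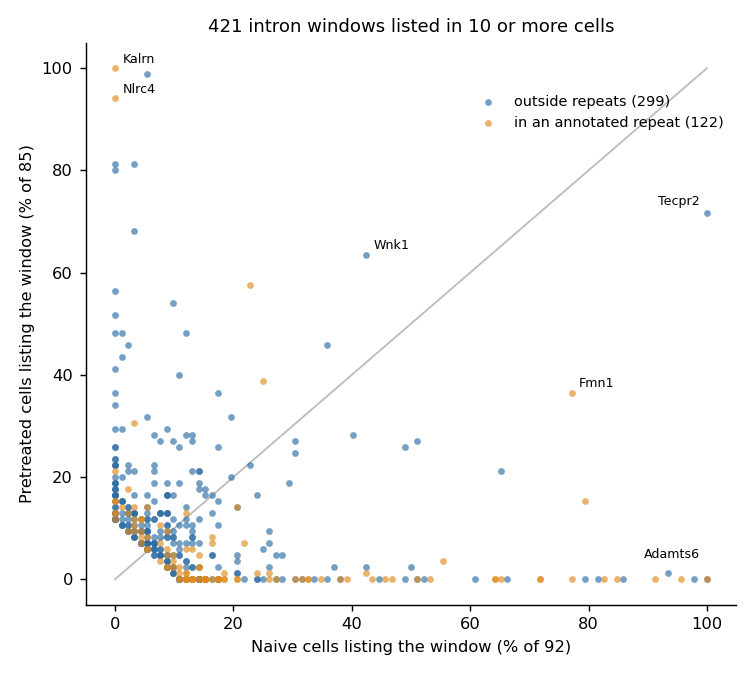
Each point is 1 of the 421 recurrent intron windows, placed by the percent of naïve cells (x axis, of 92) and of pretreated cells (y axis, of 85) that listed it, and coloured by whether it lies in an annotated repeat; the grey line marks equal shares. Points along the bottom edge, many of them in repeats, were listed in naïve cells alone, and those on the left edge, mostly outside repeats, in pretreated cells alone; Tecpr2, at 100% and 71.8%, is the point high in both.

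Some intron windows were listed in nearly every cell of a group and in no cell of the other. At least 50% of the naïve cells listed 30 intron windows, and 22 of these were at 0 in the pretreated cells. At least 50% of the pretreated cells listed 13, and 6 of these were at 0 in the naïve cells. For windows of all classes together the numbers were 146 of 461 and 42 of 367. For promoter windows they were 80 of 325 and 27 of 298, and for intergenic windows 31 of 46 and 5 of 16. Exon windows had 8 of 42 and 1 of 26, and transcript-end windows 5 of 18 and 3 of 14. A value of 0 means that no peak was listed there, and since a peak needed a minimum of tags that scales with depth, reads below it are not seen. Peaks of a cell on a strand were also 300 bp or more apart. A window can therefore be at 0 because another position nearby was listed in its place.

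The Tecpr2 window (intron 3 of 20, chr12:112136215-112136364 on mm9, + strand, 8815 bp downstream of the nearest start) held the most intron tags of the naïve cells, and in the pretreated cells fewer than the Nlrc4 window below. Tecpr2 encodes a protein of autophagy, and its strand was taken from RefSeq because the GENCODE transcript was unmatched; the peaks were on that strand. Its level ran from 354 to 19262 tags per 1000000 in the naïve cells, with a median of 8300, and from 0 to 782 in the pretreated cells, with a median of 343. The 2 ranges overlapped, and the naïve cell at 354 was the exception below 1000. The log2 ratio of pretreated to naïve was -4.93 (-4.94 to -4.92). This window alone held 11% of the naïve and 0.696% of the pretreated intron tags, and without it the intron shares were 7.80% and 4.71%. A window 13 bases downstream was listed in 22 pretreated cells, and within 50 bp the site was listed in 92 of 92 and 85 of 85 cells.

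The next windows of the naïve cells were at 0 in the pretreated cells. In Adamts6, a secreted metalloprotease gene, a window on the strand opposite to the gene (intron 18 of 24, chr13:105221409-105221558) was listed in 92 naïve cells at 26.2 to 1312 tags per 1000000, with a median of 689. In A330008L17Rik (intron 1 of 4, chr8:102161901-102162050, in an (A)n repeat) a window was listed in 92 naïve cells at 23.9 to 103 tags per 1000000. The window in Btbd9 (intron 6 of 11, chr17:30532928-30533077, the host strand) was listed in 90 naïve cells at up to 630 tags per 1000000, and RefSeq places it in an exon of Gm6402. In Gm16702 (intron 2 of 2, chr17:8577489-8577638) it was 86 naïve cells and 1 pretreated cell. None of these 4 had a pretreated window in its place within 50 bp, apart from that 1 cell.

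Kalrn and Ptpn14 held the reverse pattern. Kalrn encodes a guanine nucleotide exchange factor, and a window in its intron 34 of 49 (chr16:34083680-34083829, in a (CA)n repeat) was listed in 85 of 85 pretreated and 0 of 92 naïve cells, at 32.1 to 162 tags per 1000000 with a median of 61.1. Ptpn14, a tyrosine phosphatase gene, had a window (intron 5 of 18, chr1:191651019-191651168, the host strand) in 68 pretreated cells and 0 naïve cells, and 70 and 0 within 50 bp. At these 2 sites neither the window nor the neighbourhood was listed in naïve cells.

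Nlrc4, which encodes an inflammasome component, changed position. In intron 5 of 8, on the host strand, the window at chr17:74837933-74838082 was listed in 80 pretreated and 0 naïve cells, with a pretreated median of 510 tags per 1000000. That window was annotated as lying in a SINE repeat (ID4_). The windows 8 and 12 bases further in the direction of transcription were listed in 46 and 41 naïve cells and in 2 and 0 pretreated cells. Within 50 bp the site was listed in every kept cell of both groups, 92 and 85.

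Rpl7a-ps12, a pseudogene of ribosomal protein L7a, did the same on the X chromosome. The window at X:149344624-149344773 was listed in 84 pretreated and 5 naïve cells, and the window 18 bases before it in 56 naïve and 0 pretreated cells. The site was listed in 91 of 92 naïve and 84 of 85 pretreated cells within 50 bp. Whether its reads belong to Rpl7a itself or to another copy of it was not tested.

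The windows with the most tags but in few cells were those of Ank3 and Psmd12. Ank3, which encodes ankyrin-G, had a host-strand window (intron 25 of 42, chr10:69394185-69394334) in 24 naïve and 8 pretreated cells with up to 3553 tags per 1000000. Psmd12, a proteasome subunit gene, had a host-strand window (intron 9 of 10, chr11:107356923-107357072) in 6 naïve and 18 pretreated cells, with 923 and 75943 tags in all. In both groups the median cell was at 0 for both windows, so their sums rest on few cells.

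**Figure D5:**
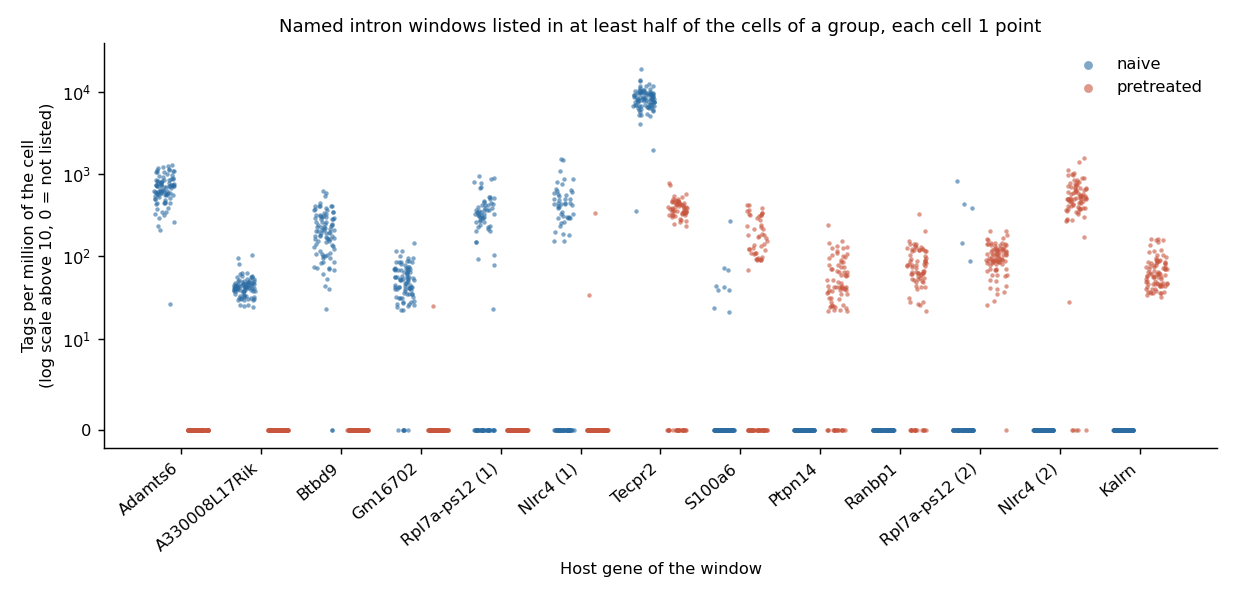
Level of 13 of the named intron windows in each cell (y axis, tags per 1000000, scaled by cell, logarithmic above 10 with unlisted cells at 0), naïve and pretreated side by side, ordered by the difference in the share of cells. Rpl7a-ps12 (1) and Nlrc4 (1) are the windows listed mostly in naïve cells, Rpl7a-ps12 (2) and Nlrc4 (2) those listed mostly in pretreated cells; the Tecpr2 window has medians of 8300 and 343.

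Windows just before an exon made up much more of the pretreated than of the naïve intron peaks. An intron peak on the host strand was counted as such when an exon window on the same strand started up to 50 bp further downstream. This held for 1146 of 57035 naïve peaks (2.01%, 1.90 to 2.13%) and 4297 of 45474 pretreated peaks (9.45%, 9.18 to 9.72%). By cell it ran from 0.313% to 6.64% with a median of 1.96% in the naïve group, and from 1.30% to 27.3% with a median of 10.1% in the pretreated group. In 82 of 85 pretreated cells it was above the highest naïve cell. These peaks were broader than other host-strand intron peaks, with a median focus ratio of 0.903 against 0.981 in the pretreated and 0.966 against 0.983 in the naïve group. The groups listed 84639 and 106618 exon windows, and with those of the naïve cells alone the shares were 1.51% and 6.87%. Among windows of 2 or more cells, each without its highest cell, the shares were 7.43% and 38.4%.

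Counted by window and strand, as a few windows hold peaks of both, the edge position was found for 45 of 185 recurrent host-strand windows (24.3%, 18.3 to 31.2%), against 2.67% of windows listed in 1 cell. It was found for 20 of the 27 listed in pretreated cells alone (74.1%, 53.7 to 88.9%) and 2 of the 57 listed in naïve cells alone (3.51%, 0.428 to 12.1%). Upstream, where an exon would end, none of the 185 had an exon window within 50 bp, which allows up to 1.97%. Of opposite-strand recurrent windows 2 of 174 had the edge position. The 45 windows lay 1 to 37 bp before the exon window, with a median of 11 bp, in 39 host genes, and 30 of them in intron 1.

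Of the 45, 38 were listed by a larger share of pretreated than of naïve cells, against 74 of all 185. In Ranbp1, a regulator of the Ran GTPase, the window (intron 1 of 5, chr16:18247452-18247601) was listed in 69 pretreated and 0 naïve cells. S100a6, a calcium-binding protein gene, had 46 pretreated and 9 naïve cells (intron 1 of 2, chr3:90417587-90417736). Sparc, a matrix glycoprotein gene, had 35 pretreated and 0 naïve cells (intron 1 of 6, chr11:55223430-55223579). Its other windows among the 45 were listed in 11 pretreated and 3 naïve cells (intron 4) and in 2 and 8 (intron 3).

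In Sparc the exon windows 9 and 25 bases downstream of the intron 1 window were listed in 18 and 26 naïve and in 4 and 35 pretreated cells. The naïve cells thus had 5′ ends in the exon there. Outside the rule for named windows, and chosen after their values were seen, were Mrpl42 (48 pretreated, 0 naïve cells), Ddx24 (44 and 0), Tspo (41 and 0), Cpe (41 and 1) and Cox4i1 (37 and 1). Among those against the run of the 45 were Prdx2, a peroxiredoxin gene with 23 naïve and 0 pretreated cells, and Rplp0, a ribosomal stalk protein gene with 15 and 0. Plk2 (12 naïve and 7 pretreated cells), Clpp (11 and 3) and the intron 3 window of Sparc also went against it.

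A smaller set of recurrent windows was listed often in both groups. After Tecpr2, the windows with the largest smaller share of the 2 groups are given, a choice made after the values were seen. Wnk1, a kinase gene of ion transport, had an opposite-strand window (intron 5 of 7, chr6:119915675-119915824) in 39 naïve and 54 pretreated cells, which RefSeq places in an exon. Fmn1, a formin gene, had a host-strand window in an L1Md_T element (intron 13 of 16) in 71 and 31 cells. Aff1, a part of the super elongation complex, had an opposite-strand window (intron 1 of 12) in 33 and 39 cells.

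Further ones were on the opposite strand in Arid5b (37 and 24 cells), Fndc3a (28 and 23), Med13l (45 and 22), Gm20696 (23 and 33) and Farp1 (21 and 49). Ddah1, whose enzyme breaks down methylated arginine, had a host-strand window in 47 and 23 cells, with a window 2 bases before it in 39 and 2. The host-strand window of Ogn, a matrix proteoglycan gene, was listed in 28 and 21 cells and lay before an exon window. Outside Tecpr2, no intron window reached 50% of the cells of both groups.

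Of the recurrent windows in interferon-list genes, the 5 in the most cells were 3 of Rnf213, a large interferon-inducible ubiquitin ligase, and 1 each of Stat2, a transcription factor of the interferon response, and Mndal. The Rnf213 windows were on the strand opposite to the gene. The one in intron 3 of 17 (chr11:119330531-119330680, in an L1 element) was listed in 30 naïve and 0 pretreated cells. The pair in intron 36 of 66, 9 bases apart in a B4A repeat, was listed in 8 and 8 and in 1 and 12 cells.

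In Stat2 the window (intron 12 of 23, chr10:127719197-127719346, the host strand) was listed in 19 naïve cells and 1 pretreated cell, with a highest level of 92.9 tags per 1000000. In Mndal (intron 1 of 9, chr1:175810215-175810364, a promoter in RefSeq) it was 2 naïve and 12 pretreated cells, and 8 and 27 within 50 bp. Ranges of the cells overlapped at 0 for each of these windows.

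Host-strand intron tags of gene lists were set beside the tags of the same genes outside introns. Over all 8852 host genes, host-strand intron tags made 47109 naïve and 25944 pretreated tags per 1000000, a log2 ratio of -0.86 (-0.86 to -0.86), while the tags outside introns had a ratio of -0.0041. Of the 3065 host genes with at least 1000 intron tags, 429 (14%) had a log2 ratio of at least 1 and 1458 (47.6%) of at most -1, with a median of -0.92.

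For the interferon list, 81 of 108 genes had host-strand intron tags. Their intron tags had a log2 ratio of -0.37 (-0.38 to -0.36) and their tags outside introns one of 1.05. Of the 43 genes with at least 1000 intron tags, 10 were at 1 or above and 15 at -1 or below, with a median of -0.54. Rnf213 had the most, 184.6 and 90.8 tags per 1000000 over 352 windows (-1.02), with 0.81 outside introns. The ratio was -0.25 in odd-numbered and -0.43 in even-numbered cells, and 0.12 among windows of 2 or more cells, each without its highest cell.

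Of these 43 genes, 16 had a positive and 27 a negative ratio inside introns, and 36 a positive and 7 a negative one outside. Negative inside and positive outside were 22. Signs were not counted over all 3065 host genes with at least 1000 intron tags. The 22 therefore has no background share beside it and is not read as a result about the list. The median ratio of the 3065 genes inside introns was -0.92. A negative ratio inside introns is thus not particular to this list. Of the 7 genes negative outside introns, Stat2 is named above. Mndal is counted among the 7 but had 0 tags outside introns in both groups. Its ratio there comes from the added 0.5 tag and the group totals alone, so it had no value outside introns. The examples were chosen after their values were seen. Bst2, the virus-tethering protein gene, had -1.59 inside and 5.43 outside, Oasl2 -1.57 and 3.24, and Ifih1, an RNA sensor gene, -1.27 and 2.69. Zbp1, a nucleic-acid sensor gene, had 3.78 and 5.08, Ifi44 2.19 and 4.21, and Xaf1 3.43 and 2.11. The intron sums of these 6 genes rest on 1 to 28 cells of a group.

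The ribosomal protein list had a ratio of 0.95 (0.93 to 0.97) inside introns and -0.70 outside. Of its 10 genes with at least 1000 intron tags, 5 were at 1 or above and 5 at -1 or below, with a median of 0.08, so the ratio of the sum was not that of a typical gene. The collagen and matrix list had 0.12 (0.11 to 0.13) inside and 0.14 outside, with 5 of 20 at 1 or above and 6 at -1 or below. Within it Sparc had 3.12 inside and 0.41 outside, and Timp1, a metalloprotease inhibitor gene, 4.65 and 1.29.

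The contractile and actin list had -0.45 (-0.46 to -0.44) inside and -0.58 outside, with 3 of 14 at 1 or above and 5 at -1 or below. The snoRNA host genes had -0.24 (-0.30 to -0.18) inside and -0.29 outside, with 3 genes of at least 1000 intron tags, 1 of them at 1 or above. Among windows of 2 or more cells, each without its highest cell, the contractile list was at 0.046 and the matrix list at 2.12. The sign of the snoRNA list also changed with odd-numbered cells alone (0.037).

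Intron peaks were listed with or without a promoter peak of the same gene. A host-strand intron peak had a promoter peak of its host gene in the same cell in 15.9% (15.6 to 16.2%) of naïve cases, and over all naïve cells the same genes had a promoter peak in 14.9%. In the pretreated group the values were 25.1% (24.7 to 25.5%) and 24.3%. For opposite-strand peaks they were 12.7% (12.2 to 13.3%) and 11.6%, and 19.7% (19.1 to 20.3%) and 18%. In each of the 4 pairs the first share was the larger, by little beside the shares themselves.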

How the data were processed

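Each cell had a deposited peak list with 1 row per peak. Bowtie2 and HOMER are named in the submitters' processing notes, with genome build mm9. Peaks were called by HOMER in each cell separately, on each strand, 150 bp wide and 300 bp or more apart, with a threshold of 200 tags per 10000000, as the deposited headers state. The deposited signal is the tag count scaled to 10000000, per the file headers, and was turned back into tags with the header totals; each of the 1082504 peaks came out whole within 0.1 tag, or, where that is wider, the last printed digit of the signal. The deposited focus ratio is a fraction from 0 to 1, and the deposited distance, used as a score in base pairs, is from the window to the nearest annotated start. The read filters and any handling of duplicates are not given in the sources used here. A tag is a read, not a molecule.

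Windows came from 3 deposited tables (GENCODE, RefSeq, UCSC) of the same 553094 windows. The strand of a window is that of its peaks; the strand and symbol of the host transcript came from GENCODE vM21 by transcript identifier, for 14795 of 17052 host transcripts, and none of that release's coordinates are printed. Where the transcript was unmatched the host gene was taken from the RefSeq table. Cells under 10% of the median total were left out. Of the 1082504 peaks, 1713 lay outside the tables. The 384 per-cell columns of 2 deposited matrices were not used. No genome of build mm9 was used, so window sequences are not shown.

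Tags were summed over cells and divided by total tags; 0.5 tag was added to each sum before a log2 ratio. Intervals are exact (Poisson or Clopper-Pearson) at 95%, and those of medians by order statistics. Scripts used Python 3.11.15, numpy 2.4.6, pandas 2.3.3, scipy 1.17.1 and matplotlib 3.10.9 and were tested on simulated data. The design assumed a table of tag counts; the recovered tags took their place, and no test was run.

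The windows, lists and comparisons were chosen with earlier results of these data known. Named windows are, among recurrent ones, the 6 in the most cells of each group and the 5 with the most tags of each group, the 5 with the largest difference in share of cells in each direction, and the 5 of interferon-list genes in the most cells. The exon-edge comparison and the cells and windows left out singly were added after seeing the data. The values of 2 of the named windows are not reported here.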

Additional observations from a re-analysis of the deposited data

How the results depend on the processing

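No paired analysis was possible because the cell numbers in the labels only name cells and no test was run. Values below are pretreated minus naïve, in percentage points for shares and bp for distances, or counts of windows, or log2 ratios of gene lists, and the cause of each change was not tested unless the setting's construction gives it. As reported, the tag share differed by -3.94, the peak share by -4.96, the host-strand share by -3.28, the focus ratio by -0.003, the distance by -764 and the exon-edge share by 7.44. Over the alternatives of the results that answer a comparison, 58 values stayed within the counting interval or 1.5 times of a count, 81 moved and 6 reversed; the intervals are narrow because they cover counting error alone.

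Keeping every cell moved the focus ratio to -0.004. With the depth minimum at 20% of the median, the tag share was -3.88, the peak share -4.52, the host-strand share -3.15, the focus ratio -0.004, the matrix list 0.14 and the interferon list -0.33. In odd-numbered cells the tag share was -3.56, the peak share -4.66, the host-strand share -2.22, the focus ratio -0.004, recurrent windows 171, and the matrix, contractile, ribosomal, interferon and snoRNA lists 0.25, -0.29, 0.70, -0.25 and 0.037 (reversed), with the exon-edge share at 6.85. In even-numbered cells these were -4.10, -5.36, -4.18, 0, 174, 0.015, -0.58, 1.19, -0.43, -0.49 and 8.22. Fewer cells leave fewer windows at 10.

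With introns by the RefSeq table, the tag share was -4.63, the peak share -5.52, the host-strand share -7.15, the distance -3586, lower windows 114, and the 5 lists 0.19, -0.33, 0.47, -0.15 and 0.0080 (snoRNA, reversed). By the UCSC table the tag share was -3.98, the peak share -5.31, the distance -1906 and lower windows 114. With peaks joined at 0 bp, the tag share was -4.07, the host-strand share -2.80, and the matrix, contractile, ribosomal and interferon lists 0.0030, -0.55, 0.84 and -0.50. With the highest cell of each window left out, which removes every window of 1 cell, the tag share was -1.97, the host-strand share 1.17 (reversed), the exon-edge share 30.99, and the 5 lists 2.12, 0.046 (reversed), 1.26, 0.12 (reversed) and -0.83.

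With peaks of at least 50 tags the tag share was -3.84 and the peak share -4.06. Weighted by tags, the focus ratio was -0.005 and the distance -2466. Recurrence in 5 or 20 cells gave 1260 and 155 windows. Windows chained within 150 bp gave 859 recurrent sites, 62 of them higher. The stricter rule of 30 points and a log2 of 2 left 18 higher. Scaled to tags in peaks, the lists were 0.20, -0.37, 1.03, -0.29 and -0.16. On both strands the matrix, contractile, interferon and snoRNA lists were 0.11, -0.34, -0.33 and 0.085 (reversed).

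Chosen after seeing the data were the following. Without naïve cell 31 and pretreated cell 93 the tag share was -4.12, the host-strand share -3.77, the exon-edge share 7.98, and the matrix and contractile lists 0.10 and -0.59. Without the Tecpr2 window the tag share was -3.09. Without windows in repeats the tag share was -2.53, the host-strand share -4.71 and lower windows 33. Within 50 bp, 72 windows were higher. With exon windows of naïve cells alone the exon-edge share was 5.36, and within 20 bp 5.74. Of the named windows, that of Rnf213 listed in 8 and 8 cells changed sign in even-numbered cells (-1.50 points) and at 0 bp (-2.81), and the pretreated window of Rpl7a-ps12 went to -0.0895 points when chained. Each peak needed a minimum of tags that scales with depth, so sites with fewer tags are not seen in shallow or in deep cells, and thinning could not redo the peak calls.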

Other observations

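The 15 cells left out for low depth had lower median intron shares than the kept cells of their group, and their ranges overlapped those of the kept cells. The 4 naïve ones, with 9334 to 36693 total tags, had 3.63% to 10.5% of their tags in intron windows, with a median of 4.76%, and 4.66% to 12.3% of their peaks, with a median of 7.40%. The 11 pretreated ones, with 16443 to 218971 tags, had 1.75% to 6.70%, with a median of 2.41%, and 3.68% to 14.4% of their peaks, with a median of 4.64%.

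In 150 intron windows peaks were listed on both strands. The deposited tables give every window on the + strand, so these pool 5′ ends of both directions under 1 window.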
